A study of Mus musculus with 8 samples.

Results

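The YAP and TEAD pathway was described here by 10 genes, taken as the rows of the deposited count table whose symbol was Yap1, Wwtr1, Tead1, Tead2, Tead3, Tead4, Lats1, Lats2, Amotl2 or Ankrd1. All 10 were present among the 54658 gene symbols of the table, and 9 of them were among the 14404 genes abundant enough to be tested. The samples were primary articular chondrocytes, the cells of joint cartilage, isolated with collagenase from the femoral heads of wild-type mice aged 3 weeks. The cells were cultured in high-glucose DMEM with fetal bovine serum and received either IL-1β, a proinflammatory cytokine associated with osteoarthritis, at 1 ng/mL for 24 h (4 samples) or vehicle for the same time (4 samples). Total RNA was sequenced (RNA-Seq). The labels do not state whether the samples of a group came from separate cultures or mice, so the p-values below measure only the spread between these samples, which may be technical.

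YAP (Yap1) and TAZ (Wwtr1) are transcriptional coactivators that carry no DNA-binding domain and reach DNA through the TEAD factors (Tead1 to Tead4). The kinases LATS1 and LATS2, the last step of the Hippo kinase cascade, phosphorylate both coactivators and keep them in the cytoplasm, and angiomotin-like proteins such as AMOTL2 bind them there. Ankrd1, Ctgf (also called Ccn2) and Cyr61 (Ccn1) are widely used transcriptional readouts of the coactivators. In chondrocytes, these proteins respond to the stiffness of the matrix and to cell shape, and they have been linked to both cartilage growth and the chondrocyte phenotype.

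Counts per sample summed to 10992355 to 17456063, and abundances are given as CPM, the counts of a gene relative to the TMM-scaled library total, with the mean ± SD of 4 samples. In these bulk samples, fewer cells that express a gene and less of its RNA per cell cannot be told apart. Replicates of one group differed by more than sampling noise in all 12 pairs (chi-square per gene 1.93 to 5.87), with the highest values for vehicle replicate 4 against vehicle replicates 1 and 2. All 7 chondrocyte markers (Col2a1, Acan, Sox9, Comp, Hapln1, Matn3, Col9a1) were present in both groups and fell with IL-1β, their summed level being 3571 to 3939 CPM with IL-1β and 14204 to 14751 CPM with vehicle. Osteoblast markers fell in 3 of 3 genes (Bglap, Ibsp, Sp7; summed 25.9 to 31.4 CPM against 83.9 to 94.9 CPM). Of the 4 fibroblast and synovial markers, Prg4 and Pdgfra rose, Col1a1 missed the threshold and Thy1 was too low to test. They summed to 2076 to 2198 CPM against 944 to 996 CPM. Most of this sum was Prg4 (mean 2011 against 856 CPM). The paper lists a decrease of Prg4, by protein staining of injured mouse knees, beside cartilage loss. That measure, time and system differ from RNA of these cultured cells. The sum therefore cannot stand for the number of fibroblast or synovial cells. Of the 4 macrophage markers, Cd68 rose and Csf1r, Ptprc and Adgre1 were too low to test, the latter 2 lying at 0 to 0.433 CPM (summed 14.3 to 17.6 CPM against 9.79 to 10.7 CPM). Endothelial, skeletal muscle, cardiac muscle and adipocyte markers summed to at most 1.07 CPM in each sample. The part of these shifts in the results below was not tested.

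Promoters were searched for the core of the TEAD binding motif, GGAATG, on either strand (as GGAATG or CATTCC) in windows of 250 bases before to 50 bases after the RefSeq transcription start (GRCm38.p6). A match is only a run of letters and shows no binding. At least 1 match was present in 6 of the 8 members with a window (75.0%), against 16.6% of 27025 genes. The 6 were Yap1, Wwtr1, Tead3, Lats2, Amotl2 and Ankrd1. A gene was counted if any of its windows held a match, and Wwtr1, Tead3 and Lats2 each had more than 1 window. Per window, the share over all genes was 14.7% of 32851 windows, which is not on the same scale as a share of genes. Tead2 and Lats1 held none in their windows, and no window was at hand for Tead1 and Tead4. The sequences of the member that fell with IL-1β (Wwtr1), of the member that rose (Amotl2) and of the classical target Ankrd1 are shown, with the match in capitals. For Wwtr1 these are the 250 bases before 1 of its 2 RefSeq starts (chr3:57575911-57576160, minus strand), where the match begins 136 bases before that start. The same match lies 170 bases before the other start. For Amotl2 they are 30 bases around its match, 65 bases before the start (chr9:102717727-102717756, plus strand), and for Ankrd1 30 bases around each of its 2 matches, 210 and 123 bases before the start (chr19:36120037-36120066 and chr19:36119950-36119979, minus strand). The windows of Amotl2 and Ankrd1 lie inside the gene as GENCODE annotates it, so only these sites are printed.
Wwtr1: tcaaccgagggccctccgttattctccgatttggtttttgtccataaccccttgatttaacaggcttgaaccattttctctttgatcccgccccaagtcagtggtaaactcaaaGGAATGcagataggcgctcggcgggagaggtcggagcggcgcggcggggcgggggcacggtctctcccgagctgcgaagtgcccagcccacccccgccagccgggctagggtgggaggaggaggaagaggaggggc
Amotl2: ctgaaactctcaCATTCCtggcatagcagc
Ankrd1, distal match: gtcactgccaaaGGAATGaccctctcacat
Ankrd1, proximal match: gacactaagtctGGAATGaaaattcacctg
Read along the strand of each gene, the Amotl2 match read CATTCC and the matches of Wwtr1 and Ankrd1 read GGAATG. The longer motif ACATTCC, searched on either strand as well, was present in 3 of the 8 members (Yap1, Tead3 and Amotl2) against 4.47% of genes.

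Of the 9 members tested, 1 was upregulated by IL-1β (Amotl2) and 1 was downregulated (Wwtr1), whereas the other 7, including Yap1 and all 4 TEAD factors, did not pass an adjusted p of 0.05 (edgeR's quasi-likelihood test, Benjamini-Hochberg adjusted over 14404 genes). These 2 of 9 (22.2%) compare with 40.2% of all genes tested, of which 20.4% were higher and 19.8% were lower with IL-1β. None of the 9 was a differentially expressed gene (DEG), which also required a log2 fold change above 1 or below -1, against 5.21% of all genes (2.86% higher, 2.35% lower). The number of DEGs among members was 0 with edgeR and 0 with DESeq2, and 4 members (Wwtr1, Amotl2, Lats2, Tead4; 44.4% of 9) had an unadjusted edgeR p under 0.05, against 46.6% of all genes. In 3 of 9 members, the ranges of the 2 groups did not overlap, against 36.8% of all genes. The median log2 fold change of the 9 was 0.0069, and that of all genes tested was -0.0012. Without vehicle replicate 4, 3 of 9 passed, with Lats2 added.

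**Figure D1:**
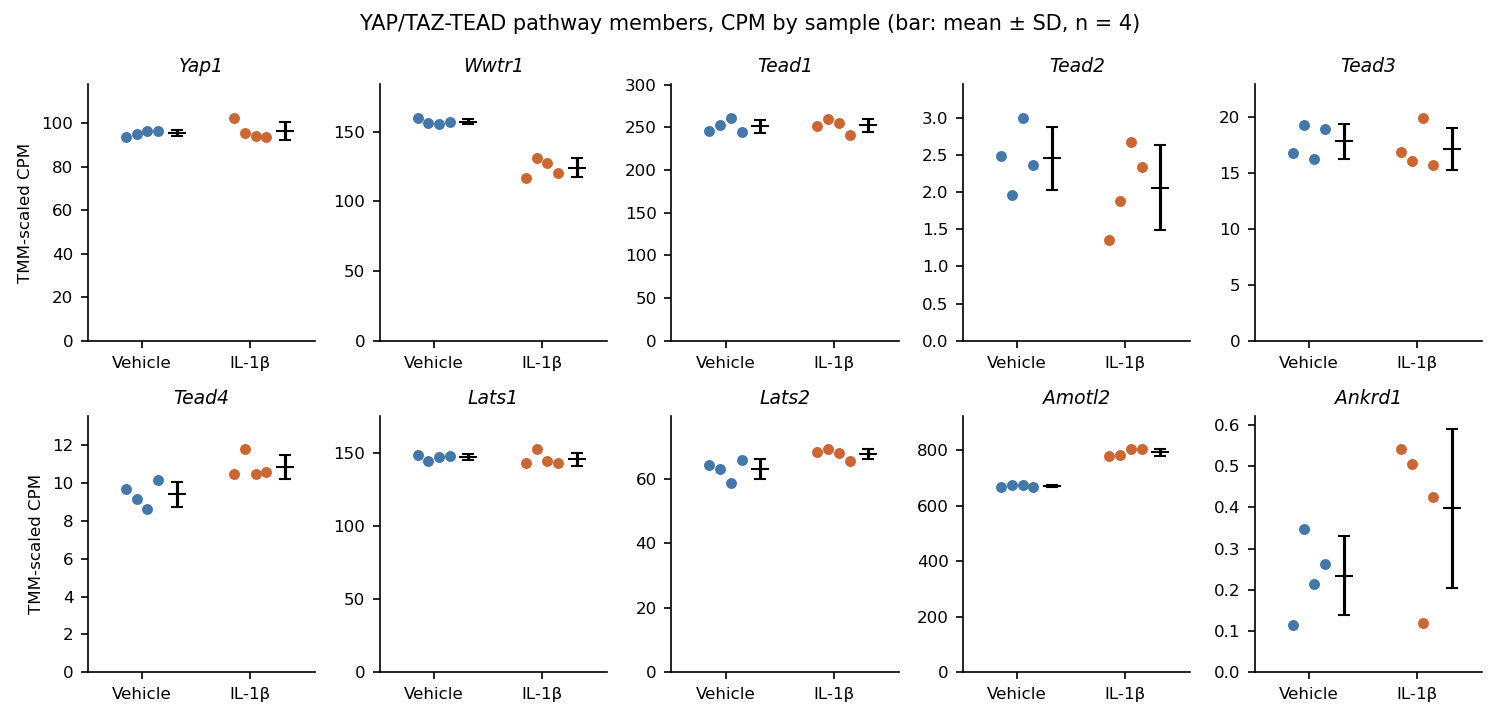
TMM-scaled CPM of each of the 10 members by sample (points; blue, vehicle; orange, IL-1β), with the mean ± SD of 4 samples as bars, each axis starting at 0. The IL-1β samples of Wwtr1 lie below and those of Amotl2 and Tead4 above all vehicle samples, while Ankrd1 stays under 0.6 CPM in all 8 samples.

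The 2 coactivators differed in their response. Wwtr1, encoding TAZ (chr3:57455649-57575910, minus strand), was measured at 117, 132, 128 and 120.4 CPM in IL-1β replicates 1 to 4 and at 159.9, 157, 155 and 157 CPM in vehicle replicates 1 to 4. The highest IL-1β sample therefore stayed below the lowest vehicle sample. The mean fell from 157 ± 1.94 to 124 ± 6.66 CPM, a log2 fold change of -0.34 (SE 0.034, edgeR adjusted p = 2.14e-09), which is a change of -20.9% (95% confidence interval -24.6 to -17.0%).

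Yap1 (chr9:7931999-8004596, minus strand) was at 103, 95.8, 94.4 and 93.6 CPM with IL-1β and at 93.7, 95.2, 96.7 and 96.4 CPM with vehicle. Here the groups overlapped, and 1 IL-1β sample stood above all others. The log2 fold change was 0.014 (SE 0.036, edgeR adjusted p = 0.801), and its 95% interval allowed a change between -4.06% and 6.26%. A fall of Yap1 as large as that of Wwtr1 was outside this interval.

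The difference between the coactivators was also tested within each sample, as the ratio of Yap1 to Wwtr1 counts per base of gene length, which needs no scaling between samples. This ratio was 0.452, 0.376, 0.381 and 0.401 in IL-1β replicates 1 to 4 and 0.303, 0.314, 0.321 and 0.317 in vehicle replicates 1 to 4. The lowest IL-1β sample exceeded the highest vehicle sample. For comparison, the groups of 36.8% of all single genes tested did not overlap either. The share among all ratios of 2 genes was not computed. The mean rose from 0.314 ± 0.00798 to 0.403 ± 0.0349 (1.28-fold, a difference of 0.36 in the mean log2 ratio, two-sided exact permutation p = 0.0286, adjusted over 2 ratios 0.0286), and this p is the smallest that 4 against 4 samples allow. TAZ transcripts thus remained more abundant per length than YAP transcripts in all 8 samples. Summed over both genes, the level per length in TPM, which divides by gene length before scaling to a common total, was 98.7 ± 4.29 (93.5 to 103.8) with IL-1β and 121 ± 3.46 (116.3 to 124.7) with vehicle.

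**Figure D2:**
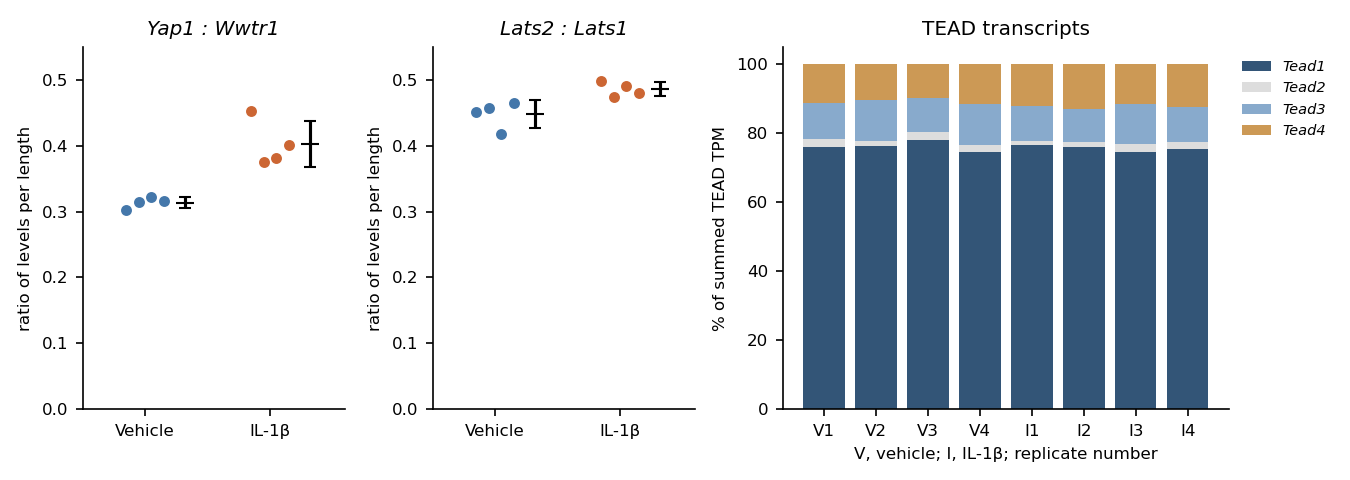
Ratio of Yap1 to Wwtr1 and of Lats2 to Lats1, each as counts per base of gene length (points, samples; bars, mean ± SD of 4), and the share of each TEAD gene in the summed TEAD TPM of each sample (stacked bars, %). Both ratios are higher in every IL-1β sample than in every vehicle sample, and Tead1 takes 74.5 to 77.9% of the TEAD transcripts throughout.

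None of the 4 genes for the TEAD factors, which carry YAP and TAZ to DNA, passed the adjusted p. Tead1 (chr7:112679318-112906807, plus strand) was the main TEAD transcript, at 252, 260.2, 255 and 241.5 CPM with IL-1β and at 246, 253, 261 and 244 CPM with vehicle. Its groups overlapped almost completely, with a log2 fold change of 0.0069 (SE 0.033, edgeR adjusted p = 0.897, 95% interval of the change -4.12 to 5.29%). Tead4 (chr6:128224288-128300823, minus strand) was at 10.5, 11.8, 10.5 and 10.6 CPM with IL-1β and at 9.69, 9.13, 8.63 and 10.1 CPM with vehicle. All 4 IL-1β samples were above all 4 vehicle samples, yet the log2 fold change of 0.20 (SE 0.093) did not pass the adjusted p (edgeR, 0.0906). In TPM, which scale the samples to each other differently from TMM, the Tead4 groups overlapped (7.67 to 8.95 against 6.78 to 7.71). The separation of Tead4 therefore depended on the scaling between samples.

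Tead3 (chr17:28331671-28350817, minus strand) was at 16.8, 16.1, 19.9 and 15.7 CPM with IL-1β and at 16.7, 19.3, 16.3 and 18.9 CPM with vehicle. Its log2 fold change was -0.049 (SE 0.082, edgeR adjusted p = 0.688), with full overlap. Tead2 (chr7:45215753-45233644, plus strand) was barely detected, with 15, 26, 45 and 33 counts with IL-1β and 43, 34, 42 and 36 counts with vehicle. For Tead2, the log2 fold change of -0.20 had an SE of 0.21 (edgeR adjusted p = 0.480), and the interval of the change ran from -35.0% to 16.5%, so that a change of this size was not detectable at this depth. Summed over the 4 genes, the TEAD level was 66.6 ± 2.96 TPM with IL-1β and 68.0 ± 2.17 TPM with vehicle. Tead1 supplied 75.6 ± 0.843% of it with IL-1β and 76.2 ± 1.36% with vehicle, Tead4 12.2 ± 0.621% and 10.8 ± 0.882%, Tead3 10.4 ± 0.969% and 10.9 ± 0.949%, and Tead2 1.75 ± 0.483% and 2.11 ± 0.354%. For each of the 4 shares the groups overlapped.

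The LATS kinases phosphorylate YAP and TAZ, and the Lats2 gene is itself a transcriptional target of the coactivators. Lats1 (chr10:7681214-7716460, plus strand) was at 143, 152, 145 and 143 CPM with IL-1β and at 149, 144, 147 and 148 CPM with vehicle. Its log2 fold change of -0.013 (SE 0.030, edgeR adjusted p = 0.773) left a 95% interval of -5.11 to 3.44% for the change. Lats2 (chr14:57689662-57758388, minus strand) was at 68.1, 69.0, 67.8 and 65.5 CPM with IL-1β and at 64.1, 63.1, 58.7 and 65.8 CPM with vehicle. Only the highest vehicle sample reached into the range of the IL-1β samples. Its log2 fold change of 0.10 (SE 0.041) lay just short of the threshold (edgeR adjusted p = 0.0506). Without vehicle replicate 4 it passed (adjusted p = 0.0310), as it did without IL-1β replicate 4 (0.0341).

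Within samples, the ratio of Lats2 to Lats1 per length was 0.498, 0.474, 0.491 and 0.480 with IL-1β and 0.451, 0.457, 0.417 and 0.465 with vehicle. No IL-1β sample overlapped the vehicle samples, as was the case for 36.8% of all single genes tested. The mean ratio rose from 0.448 ± 0.0211 to 0.486 ± 0.0107 (1.09-fold, a difference of 0.12 in the mean log2 ratio, two-sided exact permutation p = 0.0286, adjusted 0.0286). The difference missed the threshold without IL-1β replicate 1 (0.11), 3 (0.11) or 4 (0.12), each with an exact permutation p of 0.0571. Gm49361, a gene model on the same strand, covers 42.4% of the exon bases of Lats2 but is listed at 0 to 1 counts per sample, so reads shared between the 2 could not be assigned with certainty.

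Amotl2 (chr9:102716672-102733418, plus strand), which encodes an angiomotin-like junction protein that binds YAP and whose gene also responds to YAP, was the member that rose. It was at 781, 783, 803 and 803 CPM with IL-1β and at 667, 676, 673 and 668 CPM with vehicle. The groups were far apart relative to their spread, with means of 793 ± 12.3 and 671 ± 4.62 CPM. The log2 fold change was 0.24 (SE 0.028, edgeR adjusted p = 4.22e-08), a change of 18.1% (95% interval 13.5 to 22.9%).

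Ankrd1 (chr19:36111961-36120099, minus strand), which encodes an ankyrin repeat protein abundant in cardiac muscle, gave 6, 7, 2 and 6 counts with IL-1β and 2, 6, 3 and 4 counts with vehicle. These are 21 against 15 counts in all, or 0.397 ± 0.192 and 0.235 ± 0.0966 CPM, with overlapping groups. The gene did not pass the filter of a CPM above 1 in at least 4 samples. In a fit without that filter, over 32379 genes, its log2 fold change was 0.67 (SE 0.55, edgeR adjusted p = 0.518), so a difference was not detectable at this depth. The cardiac marker list summed to 0.297 to 0.496 CPM with IL-1β and 0.404 to 0.692 CPM with vehicle.

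Compared per length, the members spanned a wide range of levels. In vehicle-treated cells, Amotl2 was highest (298.7 ± 8.97 TPM), followed by Wwtr1 (92.1 ± 3.03), Lats1 (56.4 ± 1.63), Tead1 (51.8 ± 2.51), Yap1 (28.9 ± 0.647), Lats2 (25.3 ± 1.06), Tead3 (7.41 ± 0.549), Tead4 (7.30 ± 0.418), Tead2 (1.43 ± 0.260) and Ankrd1 (0.371 ± 0.152 TPM). Among neighbours in this order, the samples of Tead3 and Tead4 alone overlapped. The median of the genes tested was 12.2 TPM, so that 6 members lay above and 4 below it. With IL-1β, Amotl2 (341 ± 5.34 TPM) and Wwtr1 (70.4 ± 3.71) kept their places, and the Wwtr1 level was 1.30 times that of Lats1, compared with 1.63 times with vehicle. Lats1 and Tead1 (54.1 and 50.4 TPM), Yap1 and Lats2 (28.3 and 26.3), Tead4 and Tead3 (8.14 and 6.91) and Tead2 and Ankrd1 (1.16 and 0.615) were neighbours whose samples overlapped. The length listed for Ankrd1, 1765 bases, is shorter than its exons in GENCODE vM21, 2886 bases, so its TPM is uncertain. The TPM of Lats2 and its place below Yap1 are uncertain too, because Gm49361 covers 42.4% of its exon bases.

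**Figure D3:**
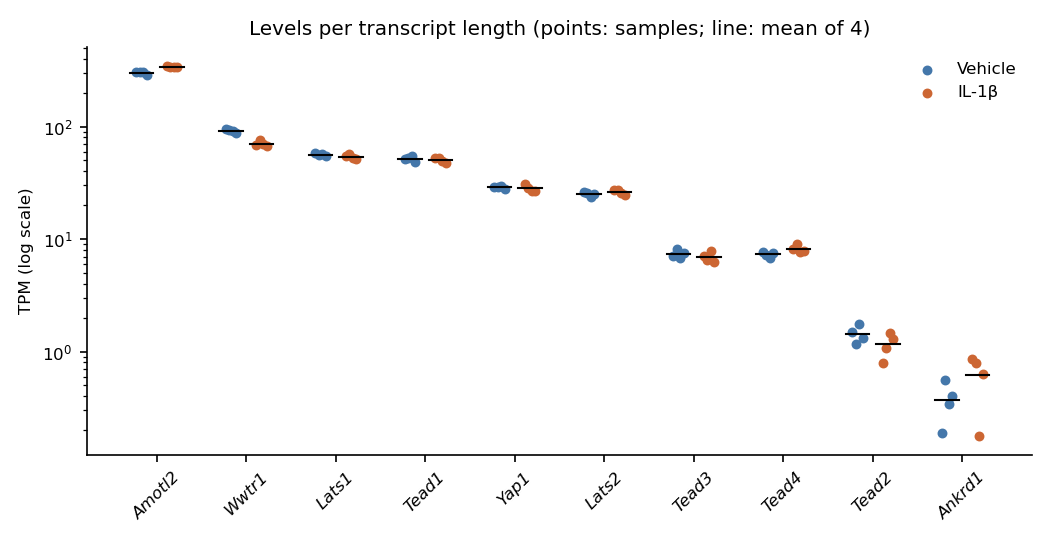
Level per gene length of the 10 members (TPM, logarithmic axis) in vehicle (blue) and IL-1β (orange) samples, with the mean of 4 samples as a line. The order runs from Amotl2 (298.7 TPM with vehicle) to Ankrd1 (0.371 TPM), and Wwtr1 and Amotl2 are the only members whose groups do not overlap on this scale.

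Other genes of the Hippo pathway were described from a list of 28, of which 26 were tested and 11 (42.3%) passed the adjusted p, 8 higher and 3 lower with IL-1β. This compares with 40.2% of all genes, and the median log2 fold change was 0.0064. Of the 7 genes of MST kinases, their adaptors and the related NDR kinases, Stk4, the gene for the kinase MST1 at the head of the cascade, was the 1 that rose. It was at 39.8, 44.4, 41.6 and 38.7 CPM with IL-1β and at 29.3, 29.2, 28.7 and 27.8 CPM with vehicle. Its log2 fold change was 0.52 (SE 0.051, edgeR adjusted p = 1.86e-09). Stk3, its paralogue MST2, had a log2 fold change of 0.020 (SE 0.080, adjusted p = 0.879). Of the 4 kinases that act beside MST, Taok3 (log2 fold change 0.34, SE 0.061, edgeR adjusted p = 4.18e-05) and Map4k4 (0.24, SE 0.031) rose. Of the pathway list, Stk3, Map4k4, Dchs1, Fat1, Amotl1, Limd1 and the VGLL genes other than Vgll3 were named after their values were seen.

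Of the 7 membrane and junction regulators, Frmd6 (log2 fold change 0.34, SE 0.034, edgeR adjusted p = 2.00e-09), which activates the kinase cascade, and the protocadherin Fat4 (0.33, SE 0.095, adjusted p = 0.00557) rose, while the protocadherins Dchs1 (-0.19, SE 0.054) and Fat1 (-0.094, SE 0.028) fell. Among the cytoplasmic YAP binders, the angiomotin family split. Amot was at 10.4, 12.8, 11.9 and 10.9 CPM with IL-1β and at 14.9, 15.9, 15.8 and 16.5 CPM with vehicle, and its log2 fold change was -0.45 (SE 0.083, edgeR adjusted p = 5.84e-05). Amotl1 (0.28, SE 0.030) rose, as Amotl2 did. Of the 3 LIM proteins that bind LATS, Limd1 rose (0.12, SE 0.045, edgeR adjusted p = 0.0370), but this call was lost in 8 of 15 alternative analyses, including those without IL-1β replicate 2 (0.166), vehicle replicate 1 (0.0685), vehicle replicate 2 (0.153) or vehicle replicate 4 (0.0533).

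Vgll3, a cofactor that binds TEAD factors in place of YAP and TAZ, was the 1 DEG among these 26 genes, against 5.21% of all genes. It was at 46.0, 49.1, 47.6 and 43.5 CPM with IL-1β and at 22.5, 22.6, 20.8 and 19.8 CPM with vehicle. Its lowest IL-1β sample was far above its highest vehicle sample, and the log2 fold change was 1.12 (SE 0.055, edgeR adjusted p = 3.69e-16), or 2.17-fold. Of the other VGLL cofactors, Vgll4 had a log2 fold change of -0.075 (SE 0.040, adjusted p = 0.138), while Vgll1 and Vgll2 had at most 1 count in any sample and were not tested. At least 1 TEAD motif was present in 10 of the 24 genes of the list with a window (41.7%), against 16.6% of all genes with a window. The 250 bases before the RefSeq start of Vgll3 (chr16:65814939-65815188, plus strand) held 1, which lay 63 bases before the start.
Vgll3: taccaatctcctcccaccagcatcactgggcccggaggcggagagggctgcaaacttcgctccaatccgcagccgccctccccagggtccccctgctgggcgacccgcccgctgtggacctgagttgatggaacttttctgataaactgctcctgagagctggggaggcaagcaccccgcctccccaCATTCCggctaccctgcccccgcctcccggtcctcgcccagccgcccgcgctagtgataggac

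**Figure D4:**
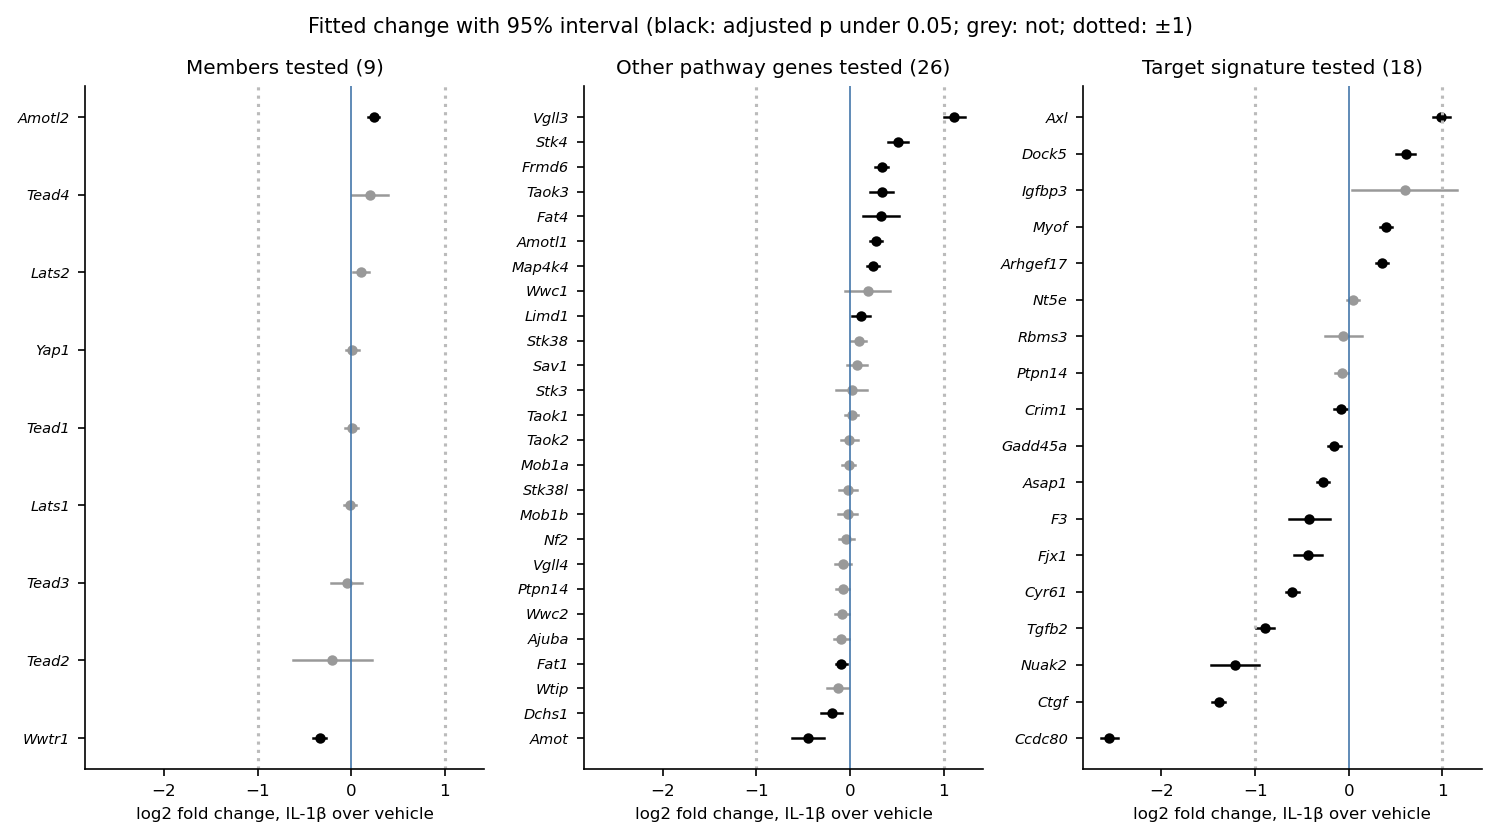
Log2 fold change of IL-1β over vehicle with its 95% interval (points and lines) for the 9 members, 26 other pathway genes and 18 target genes tested, black where the adjusted p was under 0.05 and grey otherwise; dotted lines mark ±1. The members lie between -0.34 and 0.24, the other pathway genes between -0.45 and 1.12, and the targets between -2.56 and 0.99.

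Known targets of the coactivators were described from a signature of 22 YAP and TAZ targets known from tumours. It was used without the 3 genes that are members here (Amotl2, Ankrd1, Lats2). Ptpn14 was kept in it, although it was also in the list of other Hippo pathway genes. Whether YAP or TAZ controls the remaining genes in articular chondrocytes was not tested. Of these 19 genes, 18 were tested and 14 (77.8%) passed the adjusted p, 4 higher and 10 lower with IL-1β. This compares with 40.2% of all genes tested, 20.4% higher and 19.8% lower. The median log2 fold change of the signature was -0.12. Its direction was therefore mixed. Of the 18, 3 were DEGs, all 3 lower, against 5.21% of all genes tested (2.86% higher, 2.35% lower).

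Ctgf, a matricellular protein and the most used readout of YAP and TAZ, was at 144, 144.5, 153 and 146 CPM with IL-1β and at 371, 383, 389 and 394 CPM with vehicle. The highest IL-1β sample was far below the lowest vehicle sample, and the log2 fold change was -1.39 (SE 0.033, edgeR adjusted p = 1.02e-23). Gm15270, on the opposite strand, overlaps 23.2% of its exon bases. Cyr61, a matricellular protein related to CTGF, was at 265, 268, 289 and 265 CPM with IL-1β and at 399, 423, 416 and 418 CPM with vehicle. It fell as well, but by less (log2 fold change -0.61, SE 0.034, edgeR adjusted p = 7.11e-15). Ccdc80, encoding a secreted matrix protein, had the largest fall of the signature, from 243.8 ± 5.03 to 41.2 ± 4.52 CPM (log2 fold change -2.56, SE 0.045, edgeR adjusted p = 5.71e-27). Nuak2, a kinase of the AMPK family, was low and fell from 10.2 ± 0.812 to 4.40 ± 0.965 CPM (log2 fold change -1.21, SE 0.13, edgeR adjusted p = 5.02e-09). Tgfb2, a ligand of the TGFβ family, fell from 51.8 to 56.4 CPM with vehicle to 27.4 to 29.8 CPM with IL-1β (log2 fold change -0.89, SE 0.048, edgeR adjusted p = 2.33e-15).

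In contrast, Axl, a receptor tyrosine kinase, was at 90.7, 99.8, 103 and 100.2 CPM with IL-1β and at 48.5, 50.3, 51.0 and 49.5 CPM with vehicle. Its groups were well apart, and the rise was 1.98-fold (log2 fold change 0.99, SE 0.042, edgeR adjusted p = 1.39e-17), just under the DEG threshold. Leaving out each sample in turn gave log2 fold changes of 0.97 to 1.02 for Axl, so its side of the DEG threshold depended on single samples. Dock5, Myof and Arhgef17 rose too, by log2 fold changes of 0.61, 0.40 and 0.35, and F3, Fjx1, Asap1, Gadd45a and Crim1 fell, by log2 fold changes between -0.44 and -0.087; these 8 were named after their values were seen. The call of Crim1 (edgeR adjusted p = 0.0315) was lost without IL-1β replicate 2 (0.0576) or 4 (0.122) and without vehicle replicate 2 (0.0560), 3 (0.0922) or 4 (0.0714). The 4 targets that did not pass were Igfbp3, Nt5e, Ptpn14 and Rbms3, at log2 fold changes of -0.077 to 0.60, and they too were named after their values were seen.

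**Figure D5:**
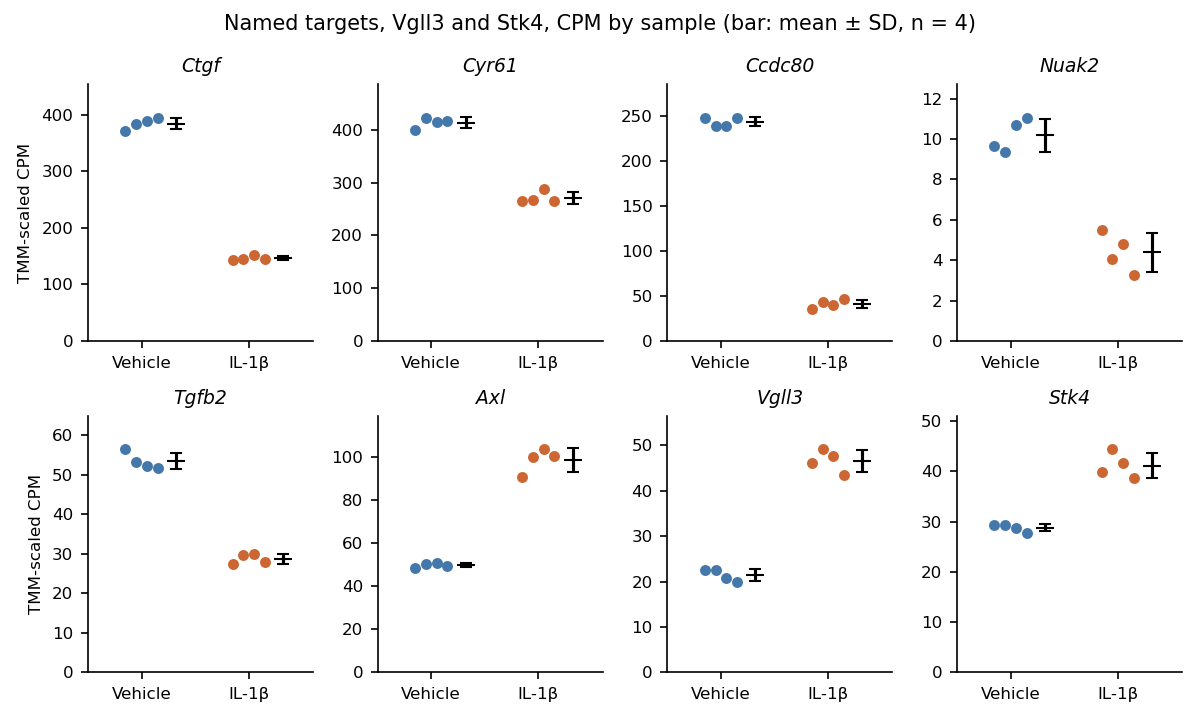
TMM-scaled CPM by sample (points; blue, vehicle; orange, IL-1β) for 6 target genes and for Vgll3 and Stk4, with the mean ± SD of 4 samples as bars, each axis starting at 0. Ctgf, Cyr61, Ccdc80, Nuak2 and Tgfb2 lie lower and Axl, Vgll3 and Stk4 higher in all IL-1β samples than in all vehicle samples.

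The TEAD motif was present in 4 of the 12 targets with a window (33.3%), against 16.6% of all genes with a window. It was present in 1 of the 2 with a window that rose and in 2 of the 5 with a window that fell. No window was at hand for Ctgf, Ccdc80, Nuak2, Asap1, Fjx1, Dock5 and Arhgef17, so no DEG of the signature was searched. Ptpn14, which held a match, was counted here and in the pathway list. Cyr61 (250 bases before the RefSeq start, chr3:145649986-145650235, minus strand; match 103 bases before the start), which fell, and Axl (chr7:25788734-25788983, minus strand; match 233 bases before the start), which rose, are shown as a pair of opposite sign that both hold the longer motif ACATTCC.
Cyr61: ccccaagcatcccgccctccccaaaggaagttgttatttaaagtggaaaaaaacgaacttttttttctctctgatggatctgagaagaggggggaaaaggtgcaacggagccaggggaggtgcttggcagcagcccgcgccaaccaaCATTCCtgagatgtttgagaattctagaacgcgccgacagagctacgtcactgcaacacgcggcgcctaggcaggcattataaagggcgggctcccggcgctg
Axl: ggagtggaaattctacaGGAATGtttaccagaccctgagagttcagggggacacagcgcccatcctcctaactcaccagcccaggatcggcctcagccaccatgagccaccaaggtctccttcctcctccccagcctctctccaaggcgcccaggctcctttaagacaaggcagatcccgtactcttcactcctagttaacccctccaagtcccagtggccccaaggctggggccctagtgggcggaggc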

How the data were processed

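RNA-Seq of 8 samples was analysed, 4 treated with IL-1β and 4 with vehicle, grouped by the treatment in their labels. After trimming with cutadapt, the authors mapped the reads to mm10 using STAR and GENCODE vM20 and summarised them per gene with featureCounts. The deposited table gives unscaled counts for each symbol and the gene length in bases, which the authors added as a column (another unit). Whether these counts precede or follow the RUVseq batch correction named in the methods, and whether counting used strand, is not given in the sources used here. The miRNA-Seq and other experiments of the study were not analysed here.

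Counts were scaled by TMM and tested by the quasi-likelihood method of edgeR 4.0.16 (with limma 3.58.1 under R 4.3.3). Genes needed a CPM above 1 in 4 or more samples. Treatment was the only term, and calls had a Benjamini-Hochberg adjusted p under 0.05 over all genes tested. For DEGs, the log2 fold change also had to exceed 1 in either direction. TPM were computed from the counts and the deposited lengths. At these totals, 3 counts correspond to 0.173 to 0.270 CPM, and this limit covers counting error only. The 2 ratios were tested by an exact permutation test (Python 3.11.15, numpy 2.4.6, pandas 2.3.3, scipy 1.17.1). Plots were made with matplotlib 3.10.9. Gene positions and overlaps came from GENCODE vM21, of the same assembly, and promoter windows from RefSeq (GRCm38.p6). The code was tested on simulated data.

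The members and gene lists were chosen with earlier results of these data known. All 10 members are named, and of each further list the 6 genes with the largest absolute log2 fold change among those past the adjusted p, plus Ctgf and Cyr61. Replicates of one group were compared by chi-square over genes with at least 20 counts in the pair. Alternatives were DESeq2 1.42.0, scaling by its size factors or by library totals, no filter or a CPM above 1 in all 8 samples, a block on the replicate number, 1 factor of unwanted variation, glmTreat, a longer motif, TPM over the genes tested, and each sample left out in turn.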

Additional observations from a re-analysis of the deposited data

Results flagged for a closer look

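In 4 of 70 groups of 4 samples examined, 1 sample stood apart from the other 3 (Dixon's test at the 95% level), and chance alone flags about 1 in 20 groups. Tead4 was at 11.8 CPM in IL-1β replicate 2 whereas its 3 fellow samples were at 10.5 to 10.6 CPM. Fat4 was at 11.4 CPM in vehicle replicate 4 and at 9.01 to 9.34 CPM in the other vehicle samples. Cyr61 was at 288.5 CPM in IL-1β replicate 3 whereas its 3 fellow samples were at 265 to 268 CPM. F3 was at 9.20 CPM in vehicle replicate 3 and at 8.28 to 8.38 CPM in the other vehicle samples.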

How the results depend on the processing

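The counts of members, pathway genes and targets past the adjusted p stayed within 1.5 times their value under each alternative run, at 2 to 3 of the members, 10 to 14 of the pathway list and 13 to 15 of the targets, and no member was a DEG under any of them. For 34 genes, 488 of 510 single-gene alternatives kept the direction and the side of the adjusted p threshold. A further 14 lost the call (8 for Limd1, 6 for Crim1) and 4 gained it, all 4 for Lats2. In those 4 the adjusted p of Lats2 was 0.0310 to 0.0486, against 0.0506, and it was 0.0310 to 0.226 over all its alternatives. The other 4 changed the sign of a log2 fold change near 0 that was past no threshold. They were Yap1 without IL-1β replicate 1 (-0.013, against 0.014) and Tead1 without IL-1β replicate 2 (-0.0063), vehicle replicate 1 (-0.0044) or vehicle replicate 4 (-0.0071, against 0.0069). Leaving out each sample in turn, these log2 fold changes ranged from -0.013 to 0.030 for Yap1 and from -0.0071 to 0.030 for Tead1. Over all genes, 751 were DEGs, against 1206 without the filter on low counts and 437 with glmTreat against a log2 fold change of 1. The longer motif was found in 3 members in place of 6.

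Same-numbered samples did not deviate together (r from -0.0689 to 0.0353 across genes), so the replicate numbers were not taken as pairs. With the replicate number as a block, 2 members, 10 pathway genes and 14 targets passed, and Limd1 was the one gene among those 34 to lose its call (adjusted p = 0.0579). The log2 differences of the ratios were 0.36 for Yap1 to Wwtr1 and 0.12 for Lats2 to Lats1 with the block, where the exact test cannot go below 0.125, the value both reached. Leaving out each sample in turn gave 0.30 to 0.39 and 0.085 to 0.14. Depth limits Ankrd1 and Tead2, with at most 7 and 45 counts per sample.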

Other observations

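Foxf2, a forkhead factor named after its values were seen and the 1 target of the signature under the filter on low counts, was at 0.904 ± 0.311 CPM with IL-1β and at 0.408 ± 0.0951 CPM with vehicle, and in the fit without that filter its log2 fold change was 1.14 (SE 0.38, edgeR adjusted p = 0.0178). With the 3 members put back, 15 of the 20 signature genes tested (75.0%) passed the adjusted p, 5 higher and 10 lower. Over all genes tested, 40.2% passed, 20.4% higher and 19.8% lower.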
